A study of Mus musculus with 6 samples.

Results

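The genes described here build the machinery that brings newly made secretory and membrane proteins into the endoplasmic reticulum (ER) and attaches the first N-linked sugars. They are 38 genes, chosen by symbol from the 55076 rows listed for each mouse, and comprise the signal recognition particle (SRP, 6 genes), its receptor (2 genes), the Sec61 channel and its partners (7 genes), the translocon-associated protein complex (TRAP, 4 genes), signal peptidase (5 genes), oligosaccharyltransferase (10 genes) and the enzymes that make dolichol-phosphate sugars (4 genes). RNA-seq libraries were made from the anterior prostate (AP), a secretory lobe of the rodent prostate, of 3 OEx and 3 Ctrl male mice 20 weeks old. Each of the 6 libraries is counted here as 1 mouse. OEx mice carried Pbsn-Cre and a Rosa26 N1ICD allele, so that the intracellular domain of Notch1, its active form, was over-expressed where the probasin promoter drives Cre, that is in prostatic epithelium. Ctrl mice carried the Rosa26 N1ICD allele without Cre according to the study's methods, while the sample labels call them wild type. Both groups came from whole tissue, and the labels do not say whether the mice were littermates.

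A ribosome that starts a protein with a signal peptide is bound by SRP and carried to the SRP receptor on the ER membrane, where the nascent chain is passed to the Sec61 channel. TRAP sits beside the channel and helps some chains to enter, signal peptidase removes the signal peptide, and oligosaccharyltransferase moves a preassembled sugar chain from the lipid dolichol to asparagine residues. Secretory epithelia such as the prostate depend on this route for the proteins of seminal fluid.

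Values are FPKM, fragments per kilobase of gene scaled to library size. The length here is that of all annotated exons of a gene together, so levels of different genes compare only roughly. Between 14762182 and 18650962 reads per mouse were recovered from them, and a floor of 3 reads equals a CPM (reads scaled to library size) of 0.161 to 0.203, for counting error only. The library size used by the authors was 1.22 to 1.35 times the recovered total in OEx mice and 0.726 to 0.815 of it in Ctrl mice, in which 1 gene took 14.3% to 22.0% of all reads, so the files hold values that were scaled between mice. Notch1 itself was at 41.9, 47.6 and 78.9 FPKM in OEx and 5.18, 5.55 and 3.34 FPKM in Ctrl mice (log2 fold change 3.30, FDR 0.000101), so every OEx mouse was above every Ctrl mouse, as its label says. Ctrl replicate 3 stood apart by 1.31% of its reads on 8 seminal vesicle genes (at most 3.25e-04% in any other mouse), and OEx replicate 3 by a summed level of 4 fibroblast genes of 19.9 FPKM against 149 and 154 FPKM in the other OEx mice. Replicates 1 and 2 of a group were also closer to each other than to replicate 3: the squared difference of their reads per gene averaged 3.68 times (OEx) and 2.93 times (Ctrl) that of counting noise, against 51.3 to 94.6 times for pairs with replicate 3. They differed by more than counting noise and were kept as separate mice. The labels do not say how the mice were sampled or whether replicates 1 and 2 share an animal or an RNA pool, which would leave fewer than 3 independent samples per group, so p-values measure the spread between these libraries only. The main counts are also given without replicate 3 of both groups and with replicates 1 and 2 averaged.

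Most of the machinery was at a lower level in OEx AP. Of the 38 genes, which averaged 1 FPKM or more and so were all tested, 22 were called lower and 1, Sec61a2, was called higher. A call required a Benjamini-Hochberg FDR under 0.05 in limma on log2(FPKM + 1) and a more than 2-fold change. Over all 12833 tested genes, 15.7% were called lower and 12.9% higher. The median log2 fold change was -1.18 for the 38 genes (range -2.75 to 1.45) and -0.078 for all tested genes. With the FDR criterion alone, 28 were lower and 4 higher, against 36.5% and 30.7% of all tested genes. In 28 genes every OEx mouse was below every Ctrl mouse and in 6 every OEx mouse was above (38.9% and 33.4% of all tested genes). The summed level of the 38 genes was 1454, 1435 and 1664 FPKM in OEx mice and 4061, 4065 and 3962 FPKM in Ctrl mice. As a share of all recovered reads they took 0.685%, 0.676% and 0.728% in OEx mice and 0.861%, 0.865% and 0.920% in Ctrl mice, so the groups did not overlap on either measure. In whole tissue, fewer cells with an active secretory route and less of these RNAs per cell cannot be told apart.

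**Figure D1:**
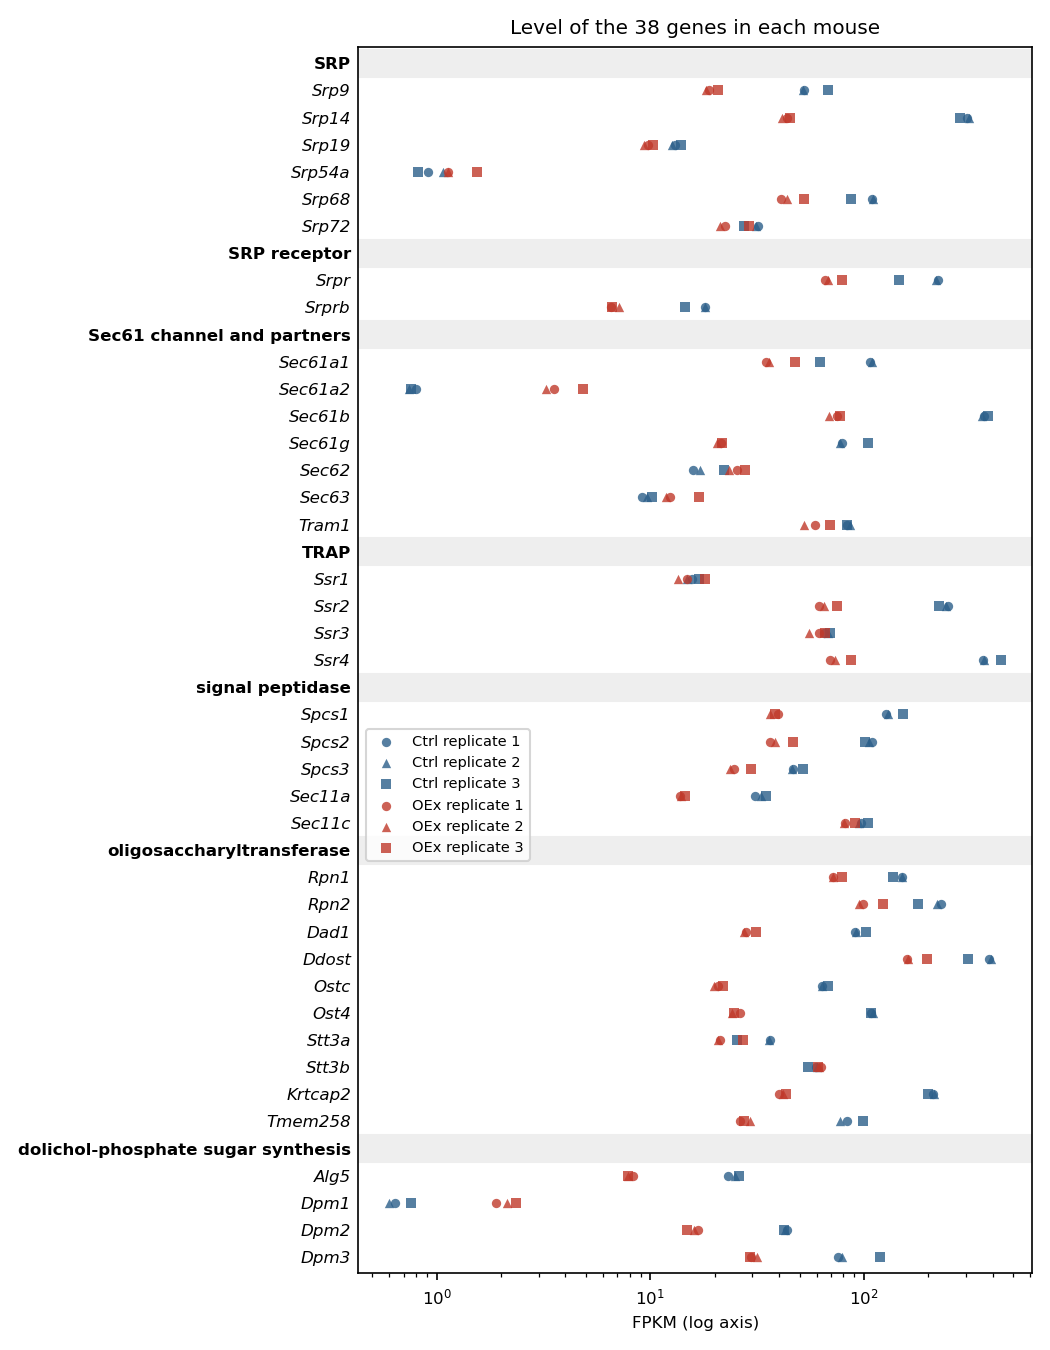
FPKM on a log axis for each of the 38 genes, grouped by complex, with 1 point per mouse (red for OEx, blue for Ctrl, and marker shape for the replicate number). The 6 points of Srp14 form 2 groups, 41.4 to 45.0 FPKM in OEx and 282 to 309 FPKM in Ctrl mice, while those of Stt3b lie between 55.0 and 62.7 FPKM in all 6 mice.

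How large the drop appeared depended on the scaling. When FPKM values were rescaled to the recovered library totals, 8 genes were called lower and 4 higher (4.59% and 30.6% of all tested genes), and the median of all tested genes moved from -0.078 to 0.56. The median of the 38 genes was then -0.42, or -0.97 relative to that of all genes, against -1.10 in the deposited scaling. The 8 genes were Srp14, Sec61b, Sec61g, Ssr2, Ssr4, Spcs1, Ost4 and Krtcap2, and the 4 were Sec61a2, Sec62, Sec63 and Dpm1. Without replicate 3 of either group, a choice made after seeing the data, 24 genes were called lower and 1 higher (16.5% and 14.2% of all tested genes), Rpn1 and Rpn2 being the additional ones. With replicates 1 and 2 of each group averaged and counted as 1 sample, also a later choice, 20 were called lower and 1 higher (15.5% and 12.6% of all tested genes), and Sec61a1 and Ddost lost their calls.

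SRP is an RNA-protein particle in which Srp9 and Srp14 form the part that slows translation, Srp54 reads the signal peptide, Srp19 helps to assemble the particle, and Srp68 and Srp72 hold its body together. Of the 6 genes, 3 were called lower. The median log2 fold change of the 6 was -0.77, and -0.028 with library totals, where that of all tested genes was 0.56. Srp14 (chr2:118475850-118479711, minus strand) had the largest fall of all 38 genes, from 303, 309 and 282 FPKM in Ctrl to 43.6, 41.4 and 45.0 FPKM in OEx mice (log2 fold change -2.75, SE 0.0816, FDR 1.42e-05). The mean level in Ctrl mice was 6.88 times that in OEx mice, and the groups were far apart. Its partner Srp9 was at 18.7, 18.2 and 20.8 FPKM in OEx and 52.4, 51.6 and 68.0 FPKM in Ctrl mice, a smaller fall of 1.52 on the log2 scale (SE 0.128, FDR 0.000112). Srp68 was at 41.1, 43.4 and 52.2 FPKM in OEx and 109, 111 and 87.3 FPKM in Ctrl mice (log2 fold change -1.15, SE 0.136, FDR 0.000413). Srp72, which binds Srp68, was at 22.5, 21.1 and 29.1 FPKM and 32.0, 31.4 and 27.4 FPKM, with OEx replicate 3 inside the Ctrl range and an FDR of 0.0771. Srp19 passed the FDR criterion only (log2 fold change -0.40, and 0.32 with library totals). Srp54a was low in every mouse, at 1.13, 1.13 and 1.55 FPKM in OEx and 0.916, 1.07 and 0.816 FPKM in Ctrl mice (FDR 0.177). Its near-identical copies Srp54b and Srp54c share reads with it, so the split of reads among the 3 genes is uncertain. Of these copies Srp54c was at 5.16, 4.41 and 5.63 FPKM in OEx and 3.31, 2.74 and 2.98 FPKM in Ctrl mice, and Srp54b overlapped between groups.

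The SRP receptor consists of the GTPase Srpr and the membrane-anchored Srprb, and both genes were called lower. Srpr (chr9:35200175-35247973, plus strand) was at 65.6, 67.7 and 79.0 FPKM in OEx and 222, 217 and 145 FPKM in Ctrl mice (log2 fold change -1.43, SE 0.181, FDR 0.000558), and replicate 3 of each group lay nearest to the other group. Srprb was far less abundant per length, at 6.51, 7.10 and 6.63 FPKM in OEx and 18.0, 18.0 and 14.5 FPKM in Ctrl mice (log2 fold change -1.20, SE 0.107, FDR 0.000138).

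The Sec61 channel is made of a large pore subunit, encoded by Sec61a1 or its paralog Sec61a2, and the small subunits Sec61b and Sec61g. In this group 3 genes were called lower and 1 higher, and the median log2 fold change was -0.48. With library totals this median was 0.29, against 0.56 for all tested genes. Sec61a1 (chr6:88503579-88518905, minus strand) was at 34.9, 36.0 and 47.6 FPKM in OEx and 106, 109 and 62.5 FPKM in Ctrl mice (log2 fold change -1.18, SE 0.24, FDR 0.00459), the largest standard error of the 38 genes, and replicate 3 of each group lay toward the other group. Sec61a2 (chr2:5870987-5895432, minus strand) went the other way, from 0.804, 0.743 and 0.763 FPKM in Ctrl to 3.53, 3.26 and 4.86 FPKM in OEx mice (log2 fold change 1.45, SE 0.145, FDR 0.000208). On 44 to 53 recovered reads per Ctrl mouse and 322 to 401 per OEx mouse, its mean FPKM was 5.04 times higher in OEx, more than the log2 scale with its pseudocount of 1 shows. It remained the scarcer of the 2 pore genes in every mouse, though reads where its exons overlap Nudt5 may be missing or shared.

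The small channel subunits had larger log2 fold changes than the pore. Sec61b (chr4:47474658-47483242, plus strand) was at 74.5, 68.8 and 77.3 FPKM in OEx and 364, 356 and 379 FPKM in Ctrl mice (log2 fold change -2.30, SE 0.0841, FDR 1.69e-05). Sec61g was at 21.3, 20.4 and 21.8 FPKM in OEx and 78.6, 77.2 and 104 FPKM in Ctrl mice (log2 fold change -1.97, SE 0.129, FDR 5.03e-05). Sec62 and Sec63 help post-translational entry through the same channel and were higher by the FDR criterion only. Sec62 was at 25.3, 23.3 and 27.7 FPKM in OEx and 15.9, 17.1 and 22.1 FPKM in Ctrl mice (log2 fold change 0.46, FDR 0.0228), and Sec63 at 12.4, 11.9 and 16.9 FPKM and 9.13, 9.65 and 10.2 FPKM (log2 fold change 0.45, FDR 0.027). In both genes every OEx mouse was above every Ctrl mouse, but after correction for GC content and exon length the values were -0.21 and -0.34. Tram1, which contacts nascent chains next to Sec61, had a log2 fold change of -0.48 (FDR 0.00881), or 0.29 with library totals.

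TRAP has 4 subunits that act as a complex, and their transcripts divided into 2 pairs. Ssr2 (chr3:88575876-88588419, plus strand) and Ssr4 (chrX:73787028-73790830, plus strand) were called lower. Ssr2 was at 61.4, 64.9 and 74.5 FPKM in OEx and 246, 241 and 225 FPKM in Ctrl mice (log2 fold change -1.81, SE 0.1, FDR 3.40e-05), and Ssr4 at 69.4, 73.3 and 86.9 FPKM and 359.8, 366 and 439 FPKM (log2 fold change -2.33, SE 0.127, FDR 3.29e-05). Ssr1 and Ssr3 overlapped between groups. Ssr1 was at 14.9, 13.4 and 17.9 FPKM in OEx and 15.6, 14.9 and 17.0 FPKM in Ctrl mice (FDR 0.774), and Ssr3 at 61.3, 55.5 and 65.6 FPKM and 65.0, 67.6 and 69.4 FPKM (FDR 0.186). Their log2 fold changes of -0.042 and -0.15 turned to 0.69 and 0.62 with library totals and to -0.81 and -0.94 with the GC content and exon length correction. The gap between the pairs was present in each of these settings, with Ssr2 at -1.04 and -1.27 and Ssr4 at -1.55 and -2.11.

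Signal peptidase contains a catalytic subunit, either Sec11a or Sec11c, with the accessory subunits Spcs1, Spcs2 and Spcs3. Of the 5 genes 3 were called lower, and every OEx mouse was below every Ctrl mouse in all 5 (15.7% and 38.9% of all tested genes). Their median log2 fold change was -1.17, or -0.42 with library totals, where that of all tested genes was 0.56. In that scaling the log2 fold change of Sec11c was 0.56 and that of Spcs3 -0.11. Spcs1 (chr14:30999826-31001672, minus strand) was at 39.6, 36.1 and 38.5 FPKM in OEx and 127, 129.9 and 152 FPKM in Ctrl mice (log2 fold change -1.81, SE 0.0983, FDR 3.29e-05). Spcs2 was at 36.5, 38.2 and 46.5 FPKM and 108, 106 and 101 FPKM (log2 fold change -1.36, SE 0.109, FDR 9.50e-05). Spcs3 passed the FDR criterion and missed the fold criterion (log2 fold change -0.87, SE 0.111). Of the catalytic subunits, Sec11a was called lower, at 13.7, 14.0 and 14.5 FPKM in OEx and 30.8, 33.1 and 34.9 FPKM in Ctrl mice (log2 fold change -1.17, SE 0.0808, FDR 5.87e-05). Sec11c was the more abundant of the 2 in every mouse, at 81.8, 80.7 and 90.7 FPKM and 96.3, 94.8 and 104 FPKM (log2 fold change -0.22, SE 0.0867, FDR 0.0601).

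Oligosaccharyltransferase exists in 2 forms that differ in the catalytic subunit. The Stt3a form works beside the channel on entering chains and holds Ostc and Krtcap2, while the Stt3b form acts later and holds Tusc3 or Magt1. Ribophorins (Rpn1 and Rpn2), Ddost, Dad1, Ost4 and Tmem258 are common to both forms. Of the 10 genes 6 were called lower, and their median log2 fold change was -1.33, or -0.56 with library totals. In the deposited scaling the small subunits again showed the largest differences. After correction for GC content and exon length, Krtcap2, Ost4, Dad1 and Ostc had log2 fold changes of -1.78, -1.70, -1.93 and -1.72. The large Stt3a was then at -1.54 and the small Tmem258 at -1.26. Krtcap2 (chr3:89245966-89249906, plus strand) was at 40.1, 41.8 and 43.2 FPKM in OEx and 211, 212 and 199 FPKM in Ctrl mice (log2 fold change -2.29, SE 0.0768, FDR 1.67e-05). Ost4 (chr5:30905885-30907788, minus strand), with 37 codons the shortest coding sequence of the 38, was at 26.3, 24.2 and 24.6 FPKM and 108, 109.8 and 108 FPKM (log2 fold change -2.08, SE 0.0738, FDR 1.69e-05). Dad1 was at 28.1, 27.5 and 31.4 FPKM and 90.3, 91.3 and 102 FPKM (log2 fold change -1.67, SE 0.0927, FDR 3.40e-05). In each of these genes the spread within a group was small beside the distance between groups. Several members share exon sequence with a neighbouring gene in the annotation, among them Srp9 (Gm17968), Srpr (Fam118b and Tirap), Sec61a2 (Nudt5), Spcs1 (Glt8d1), Ost4 (Agbl5), Krtcap2 (Trim46), Tmem258 (Fen1) and Dpm1 (Gm20716), and since the strand used in counting was not given in the sources used here, reads of the overlap may be missing or shared.

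The remaining subunits ran from a fall close to that of Dad1 to no detectable difference. Tmem258 was at 26.2, 29.3 and 27.3 FPKM in OEx and 83.3, 77.0 and 99.1 FPKM in Ctrl mice (log2 fold change -1.60, SE 0.113, FDR 6.33e-05). Ostc was at 20.8, 19.9 and 21.9 FPKM and 63.5, 63.7 and 67.6 FPKM (log2 fold change -1.59, SE 0.0771, FDR 2.64e-05). Ddost, the most abundant of the 10 in OEx mice, was at 158, 161 and 197 FPKM and 383, 393 and 307 FPKM and just passed the fold criterion (log2 fold change -1.06, SE 0.139, FDR 0.000647). Without Ctrl replicate 2 the call of Ddost was lost. The ribophorins lay just on the other side of that criterion, Rpn1 with a log2 fold change of -0.97 (SE 0.0859, FDR 0.000133) and Rpn2 with -0.98 (SE 0.141, FDR 0.00098). Of the catalytic subunits, Stt3a was at 21.2, 20.6 and 27.1 FPKM in OEx and 36.3, 35.9 and 25.5 FPKM in Ctrl mice and overlapped between groups (log2 fold change -0.48, FDR 0.0441). Stt3b was at 62.7, 61.4 and 60.7 FPKM and 59.6, 60.4 and 55.0 FPKM (log2 fold change 0.079, SE 0.0765, FDR 0.392). Of the subunits particular to the Stt3b form, Tusc3 was called lower, at 15.2, 14.3 and 16.5 FPKM in OEx and 32.7, 31.4 and 33.2 FPKM in Ctrl mice (log2 fold change -1.04), and Magt1 overlapped between groups (log2 fold change 0.22). Each form thus held members called lower and members not called.

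Dolichol-phosphate glucose is made by Alg5, and dolichol-phosphate mannose by the catalytic subunit Dpm1 with its stabilising partners Dpm2 and Dpm3. Here 3 of 4 genes were called lower. Alg5 was at 8.30, 7.87 and 7.89 FPKM in OEx and 23.2, 24.8 and 26.0 FPKM in Ctrl mice (log2 fold change -1.51, SE 0.0804, FDR 3.19e-05). Dpm2 was at 16.6, 15.9 and 14.9 FPKM and 43.8, 42.6 and 42.1 FPKM (log2 fold change -1.38, SE 0.0769, FDR 3.40e-05), and Dpm3 at 29.5, 31.5 and 29.4 FPKM and 75.8, 79.3 and 118 FPKM (log2 fold change -1.54, SE 0.174, FDR 0.000343). Dpm1 was at 1.89, 2.14 and 2.35 FPKM in OEx and 0.640, 0.598 and 0.756 FPKM in Ctrl mice, so that every OEx mouse was above every Ctrl mouse while its partners showed the reverse. Its log2 fold change of 0.91 (SE 0.119, FDR 0.000633) missed the fold criterion with a pseudocount of 1, and its mean FPKM was 3.20 times higher in OEx, on 58 to 86 recovered reads per Ctrl mouse. Dpm1 was called higher with a pseudocount of 0.1. The GC content and exon length correction left a value of 0.24. Dpm1 shares exon sequence with Gm20716, so reads of Dpm1 may be missing or shared, and its contrast with Dpm2 and Dpm3 is uncertain.

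**Figure D2:**
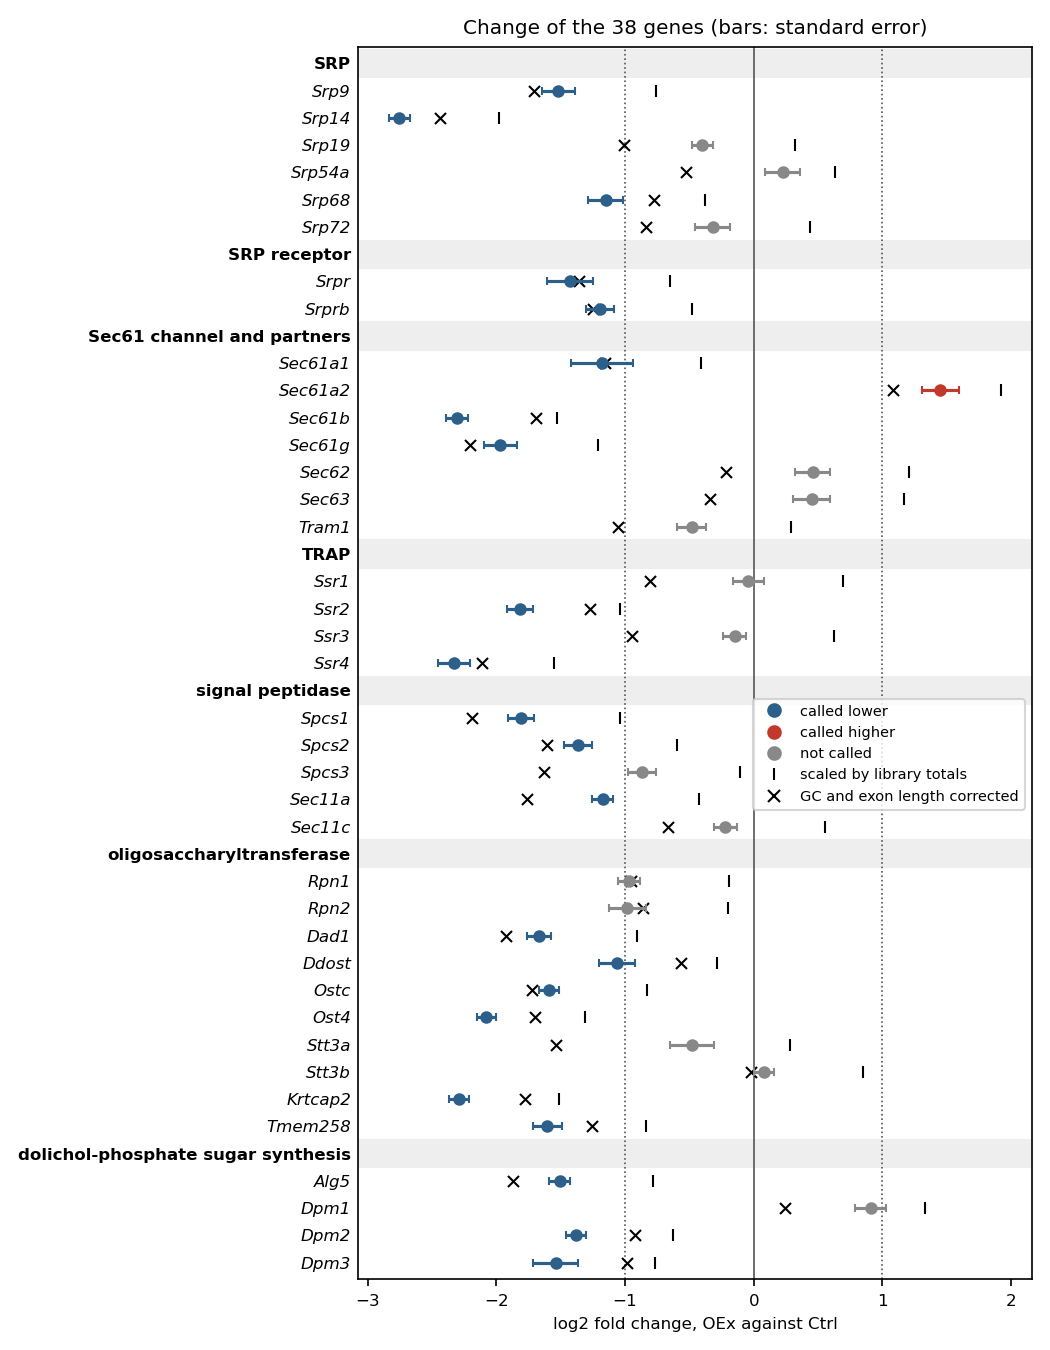
Log2 fold change of each of the 38 genes, OEx against Ctrl, with its standard error (n = 3 mice per group), grouped by complex. Blue circles were called lower, the red circle (Sec61a2) higher, and grey circles were not called, while ticks give the value with library totals and crosses that after correction for GC content and exon length. Circles lie from -2.75 (Srp14) to 1.45 (Sec61a2), dotted lines mark the fold criterion, and ticks lie to the right of the circles in every row, across 0 for Srp19, Srp72, Tram1, Ssr1, Ssr3, Sec11c and Stt3a.

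Ratios between 2 genes in the same mouse do not depend on the scaling between mice. In this way 3 pairs of catalytic or pore paralogs were compared with exact permutation tests over mice. These pairs were chosen with earlier results of these data known. With 3 against 3 mice the smallest two-sided p is 0.1, which all 3 pairs reached (0.1 after Benjamini-Hochberg adjustment too), so none could pass a threshold of 0.05. Sec61a1 was 9.88, 11.0 and 9.80 times as abundant as Sec61a2 in OEx mice and 132, 147 and 81.9 times in Ctrl mice, a shift of -3.51 on the log2 scale. The ratio of Sec11a to Sec11c was 0.168, 0.173 and 0.159 in OEx and 0.320, 0.349 and 0.336 in Ctrl mice (log2 shift -1.01). That of Stt3a to Stt3b was 0.338, 0.336 and 0.447 in OEx and 0.608, 0.595 and 0.464 in Ctrl mice (log2 shift -0.57), and here replicate 3 of both groups was almost equal. In all 3 pairs the ratio was lower in every OEx mouse than in every Ctrl mouse. On the log2(FPKM + 1) scale, a setting added after seeing the data, the shifts were -2.63, -0.95 and -0.56 in the same order, and on that scale corrected for GC content and exon length they were -2.24, -1.09 and -1.52.

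Other ratios, chosen after their values were seen and therefore not tested, describe how unevenly subunits of the same complex moved. Ssr4 was 1.13, 1.32 and 1.32 times as abundant as Ssr3 in OEx and 5.53, 5.41 and 6.33 times in Ctrl mice. For Krtcap2 against Stt3b the ratio was 0.639, 0.681 and 0.712 in OEx and 3.54, 3.51 and 3.63 in Ctrl mice, and for Srp14 against Srp72 it was 1.94, 1.96 and 1.55 and 9.47, 9.84 and 10.3. In FPKM the order of Krtcap2 and Stt3b was therefore opposite in the groups.

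**Figure D3:**
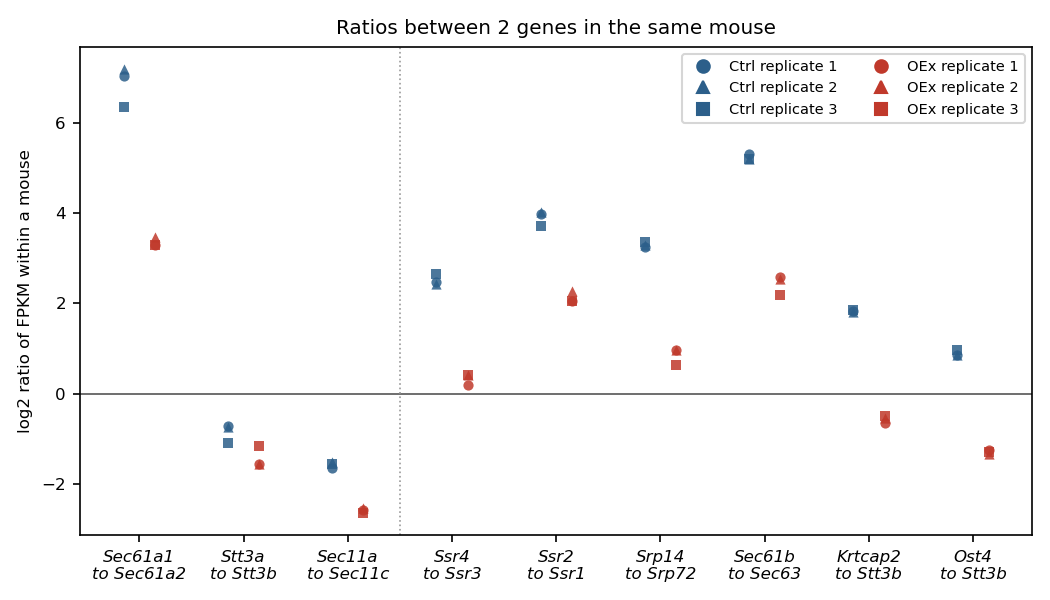
Log2 of the FPKM ratio of 2 genes within a mouse, 1 point per mouse (red for OEx, blue for Ctrl, and marker shape for the replicate number). The 3 pairs left of the dotted line were chosen as paralogs, with earlier results of these data known, and the 6 to its right after their own values were seen. OEx points lie below Ctrl points in each pair, by a mean of 3.51 for Sec61a1 to Sec61a2 and with the least distance for Stt3a to Stt3b, whose replicates 3 lie at -1.16 (OEx) and -1.11 (Ctrl).

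Coding length was not used to choose the members, and their changes are described by it here. Of 17 members of up to 200 codons, 14 were called lower and the median log2 fold change was -1.67, against 4 of 9 between 200 and 400 codons (-0.48) and 4 of 12 above 400 codons (-0.72). Outside the machinery, 37.4% of 1503 other tested protein-coding genes of up to 200 codons were called lower (median -0.74), 18.1% of 3185 in the middle class (-0.29) and 8.07% of 6097 in the long class (0.16). Across genes, which are not independent replicates and share the same 6 libraries, the Spearman rho of log2 fold change with coding length was 0.67 over the 38 members and 0.35 over 10785 other genes. For exon length it was 0.75 and 0.39, for GC content of the exons -0.52 and -0.39, and for the mean level in Ctrl mice -0.70 and -0.60, the last of which shares its Ctrl values with the fold change. The length classes were set after the data were seen. With the values corrected for GC content and exon length across all genes, 22 members were again called lower and 1 higher, 18 of the 22 being called in both (14.4% and 8.52% of all tested genes). The 4 members that lost the call were Srp68, Ddost, Dpm2 and Dpm3, and Srp19, Tram1, Spcs3 and Stt3a were called in their place.

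**Figure D4:**
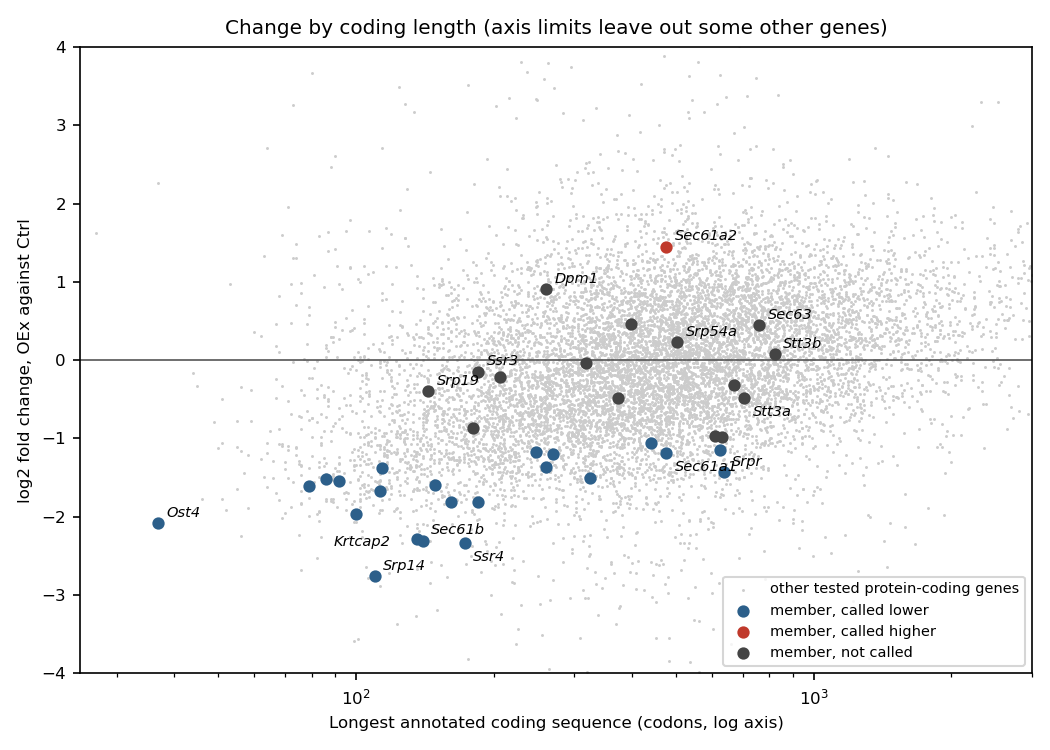
Log2 fold change, OEx against Ctrl, against the length of the longest annotated coding sequence in codons (log axis), for the members (large points, blue for called lower, red for called higher, dark grey for not called) and all other tested protein-coding genes (small grey points, some outside the axis limits). Members of up to 200 codons have a median of -1.67 against -0.74 for other genes of that length, and Ssr3, Srp19 and Spcs3 are the 3 of that length that were not called.

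Promoter windows from RefSeq (GRCm38.p6, 250 bases before to 50 after the annotated start) were matched for 31 of the 38 genes and searched on both strands for 4 motifs. Of these, 3 belong to Atf6 and Xbp1, the ER stress factors known to drive genes of this machinery, and TGGGAA is the motif of Rbpj, the DNA-binding partner of N1ICD. The ER stress response element, CCAAT and CCACG with 9 bases between them, was in no member window and in 0.137% of 27025 genes with a window. Its second form, ATTGG and CCACG with 1 base between them, in which ATTGG is CCAAT read on the other strand, was in 1 member, Krtcap2, and in 12 genes in all (0.0444%). ACGTG, the core of the unfolded protein response element and also of hypoxia and E-box type sites, was in 13 members (41.9%), in 21.8% of all genes and in 29.5% of the 8875 tested genes with a window. Among members called lower 8 of 18 with a window held it, and among the others 5 of 13. TGGGAA was in 5 members (16.1%), in 28.3% of all genes and in 26.5% of the tested genes, and was held by 4 of the 18 members called lower and 1 of the 13 others. No test was made of these shares, and a match describes letters, not a bound site. The stretches below, each read along its gene, show for the 8 called members the ACGTG nearest to the start, in capitals (CACGT where it lies on the other strand), and then the Krtcap2 stretch with the second form of the ER stress response element in capitals.
Srp14 (chr2:118479697-118479725, minus strand): gattgacggaagACGTGcaactaaagcgg
Srpr (chr9:35211180-35211208, plus strand): gctgctggtgtgACGTGtcccgcgcttgg
Srprb (chr9:103202084-103202112, minus strand): ggagcctagagcCACGTaactttggcggc
Spcs1 (chr14:31001709-31001737, minus strand): ctctgcagcagcCACGTagggccacaacc
Dad1 (chr14:54254059-54254087, minus strand): aaggctatagtaCACGTctccagaggggg
Krtcap2 (chr3:89246407-89246435, plus strand): gtaaagcaagtcCACGTtggccccgacgc
Tmem258 (chr19:10204202-10204230, plus strand): ttgctcctgccgACGTGttcttccggtgg
Dpm2 (chr2:32570824-32570852, plus strand): tctccgcgtgtcACGTGatttacaagccg
Krtcap2 (chr3:89246481-89246509, plus strand): gggacacggATTGGACCACGgacggggcg
Krtcap2 and Tmem258 each have 2 annotated starts, and distances are from the start nearer to the match. The first capital base stood 17 bases before the annotated start in Srp14, 11 in Srpr, 35 in Srprb, 59 in Spcs1, 146 in Dad1, 19 in Krtcap2 and 22 in Dpm2, and was base 13 after the start in Tmem258. The ACGTG of Krtcap2 is placed from the start at chr3:89246438. The second form in Krtcap2 began at base 18 after the other start, at chr3:89246473.

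Other genes of the same route had a median change nearer to 0. Of 52 listed genes for dolichol and lipid-linked sugar synthesis, glucose trimming, membrane insertion and paralogs, 49 were tested. Of these, 14 (28.6%) were called lower and none higher, against 15.7% and 12.9% of all tested genes. The median of the 49 was -0.63 on the log2 scale. By limma FDR alone 32 were lower and 4 higher, against 36.5% and 30.7% of all tested genes. The numbers were the same at an unadjusted p under 0.05, and limma-voom on the recovered reads also called none higher. In the tail-anchored protein route 4 of 7 were called lower (Asna1, Wrb, Get4 and Ubl4a), Get4 the most, from 94.5, 91.5 and 88.3 FPKM in Ctrl to 28.5, 29.8 and 34.8 FPKM in OEx mice. In the ER membrane protein complex, an insertase, 3 of 10 were called lower (Emc4, Emc6 and Emc9), Emc4 from 92.5, 85.4 and 82.7 FPKM to 34.2, 33.8 and 34.5 FPKM. In the multipass translocon and SND group 3 of 7 were called lower (Wdr83os, Nomo1 and Tmem208), whereas Ccdc47, at 14.2, 14.1 and 15.1 FPKM in OEx and 6.87, 7.82 and 8.66 FPKM in Ctrl mice, was above Ctrl in every OEx mouse without passing the fold criterion. In lipid-linked sugar assembly 2 of 12 tested genes were called lower, Mpdu1 and Dpagt1, the enzyme of the first step, which was at 10.4, 10.2 and 10.6 FPKM in OEx and 29.0, 29.2 and 23.1 FPKM in Ctrl mice. Alg10b, which adds the last glucose, was at 8.38, 8.12 and 8.46 FPKM and 4.68, 4.19 and 4.10 FPKM (log2 fold change 0.81). Prkcsh, the regulatory subunit of glucosidase II, was called lower, and its catalytic partner Ganab overlapped between groups. Of the 5 genes of dolichol synthesis 3 (Dhdds, Dolk and Dolpp1) were lower by FDR alone and missed the fold criterion. With library totals, 1 of the 49 genes was called lower and 4 higher (2.04% and 8.16%), against 4.59% and 30.6% of all tested genes. Corrected for GC content and exon length 9 of the 49 (18.4%) were called lower, against 14.4% of all tested genes, and with other scalings 3 and 6 (6.12% and 12.2%) against 9.38% and 10.3%.

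Markers of cell types moved between the groups as well. The summed level of 8 genes of prostate identity and secretory products was 2816 to 6226 FPKM in OEx and 25588 to 25831 FPKM in Ctrl mice, with 6 of 8 called lower and Msmb higher, and none at 0 in any mouse. The 4 luminal epithelial genes summed to 1004 to 1322 FPKM in OEx and 1498 to 1740 FPKM in Ctrl mice with 1, Krt18, called lower. They did not move together. Krt18 and Krt8 were below Ctrl in every OEx mouse (log2 fold change -1.49 and -0.43). Epcam and Cdh1 were above Ctrl in every OEx mouse (0.45 and 0.63) without being called. Markers of the labelled tissue were thus present in all 6 mice. The 4 basal epithelial genes summed to 6.79 to 15.9 FPKM against 212 to 249 FPKM and the 4 smooth muscle genes to 349 to 415 FPKM against 1037 to 2232 FPKM, with all 8 called lower. The 4 endothelial genes summed to 5.98 to 7.40 FPKM in OEx and 12.9 to 17.6 FPKM in Ctrl mice, and Pecam1, Cdh5 and Vwf passed the FDR criterion only. The 4 fibroblast genes summed to 43.3 to 76.6 FPKM in Ctrl mice (OEx values are given above), and 5 immune genes to 19.1, 18.7 and 4.36 FPKM in OEx and 4.35 to 10.3 FPKM in Ctrl mice, with replicate 3 the lowest OEx mouse in both lists. Plasma cells are rich in the same machinery, and their 5 markers summed to 37.0 to 38.7 FPKM in OEx and 123 to 127 FPKM in Ctrl mice. The higher sum in Ctrl mice came from Derl3, a factor of ER-associated degradation, at 2.24, 2.61 and 7.03 FPKM and 99.1, 101 and 94.8 FPKM, whereas the other 4 markers had higher means in OEx mice. Of these, Sdc1 was at 32.9, 32.1 and 30.1 FPKM in OEx and 22.6, 22.7 and 31.0 FPKM in Ctrl mice, which overlapped, and Jchain, Mzb1 and Tnfrsf17 were at most 2.33 FPKM in any mouse. Whether these marker levels reflect cell composition or RNA per cell, and what part they have in the level of the 38 genes, was not tested.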

How the data were processed

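Anterior prostates of 3 OEx and 3 Ctrl mice were sequenced, and the deposited values are FPKM, 1 table per library by gene symbol. According to the study's methods the RNA passed an integrity check, libraries came from a TruSeq kit, and reads went through an in-house pipeline. The submitters' processing notes name CASAVA, HISAT2 2.0.5, featureCounts 1.5.0-p3 and StringTie 1.3.3b without their roles, and the genome build, annotation and strand setting are not given in the sources used here.

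Rows were matched by symbol to GENCODE vM21 (GRCm38), which placed 53636 of 55076 rows uniquely, and coordinates are of that build. Reads were recovered from FPKM, exon length and the smallest steps of each mouse. Between 96.9% and 97.5% of values under 1000 reads came out whole within 0.05 reads. Intervals and floors cover counting error only. Rows averaging 1 FPKM or more (12833) entered the test. It was made in R 4.3.3 with limma 3.58.1 on log2(FPKM + 1), with group as the only term and an intensity trend. Fold changes of low genes are understated on this scale. A run on simulated libraries, drawn independently and with few changed genes, checked the code only. Its setting differs from these data, so it does not measure their error rate. A call needed a Benjamini-Hochberg FDR under 0.05 over all tested rows together with a log2 fold change beyond 1 in either direction, as in the study. Exact permutation tests (20 assignments of 3 of 6 mice) were two-sided. Coding length is that of the longest annotated coding sequence. For the GC content and exon length correction lowess trends (span 0.3) were taken off each mouse's deviations from the gene means. Exact tests ran in scipy 1.17.1 under Python 3.11.15.

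The members, the other gene lists, the tests and the other settings tried were chosen with earlier results of these data known. All 38 members, called genes of the other pathway lists, marker genes by list and Notch1 are named by rule, and Srp54b, Srp54c, Magt1, Ganab, Dhdds, Dolk, Dolpp1, Ccdc47 and Alg10b were named after their values were seen. A gene of the prostate marker list is not reported here and was left out of its sums and counts. Other samples or experiments of the study were not analysed here.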

Additional observations from a re-analysis of the deposited data

How the results depend on the processing

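Leaving out 1 mouse at a time, the members called lower ranged from 21 to 24, those called higher stayed at 1, and their median log2 fold change ranged from -1.28 to -1.12. Of all tested genes, 15.5% to 15.9% were called lower and 12.6% to 13.4% higher in these settings. Over the same settings the paralog shifts ranged from -3.77 to -3.35 (Sec61a1 to Sec61a2), from -0.71 to -0.50 (Stt3a to Stt3b) and from -1.04 to -0.97 (Sec11a to Sec11c). With a pseudocount of 1, added after seeing the data, these shifts were -2.63, -0.56 and -0.95, and on that scale with GC content and exon length correction -2.24, -1.52 and -1.09.

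Library totals gave 8 members lower, 4 higher and a median of -0.42 (4.59% and 30.6% of all tested genes called). Totals without the 20 most abundant genes gave 17 lower, 2 higher and -0.85 (9.38% and 19.7% of all tested genes called), and upper-quartile scaling over the tested rows gave 17 lower, 2 higher and -0.90 (10.3% and 18.2%). A pseudocount of 0.1 and limma-voom gave 22 lower and 2 higher each (19.2% and 18.0% of all tested genes in both). The FDR criterion alone gave 28 lower and 4 higher (36.5% and 30.7%). Without replicate 3 of both groups the median was -1.30. Of the other pathway genes, those called lower numbered 1 with library totals, 3 without the 20 most abundant genes, 6 with upper-quartile scaling, 7 with exon length correction (14.3% of 49, against 13.3% of all tested genes), 9 with GC content and exon length correction and 32 by FDR alone, and those called higher numbered 4, 2, 2 and 4 with library totals, without the 20 most abundant genes, with upper-quartile scaling and by FDR alone. The scalings are a different choice of what is held equal between mice, and which is right was not tested.

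Signs turned with library totals for Srp19 (0.32), Srp72 (0.44), Tram1 (0.29), Ssr1 (0.69), Ssr3 (0.62), Sec11c (0.56) and Stt3a (0.28). Without the 20 most abundant genes they turned for Srp72 (0.010), Ssr1 (0.28), Ssr3 (0.19) and Sec11c (0.12), and with upper-quartile scaling for Ssr1 (0.22), Ssr3 (0.13) and Sec11c (0.058). The median of all tested genes was itself 0.56, 0.20 and 0.15 in these settings, in the same order. GC content correction turned Srp54a (-0.44), Sec62 (-0.19), Sec63 (-0.097) and Stt3b (-0.0031), and with exon length added, with or without the replicate block, these were -0.53, -0.21, -0.34 and -0.020. Leaving out single mice, Ssr1 ranged from -0.15 to 0.047, above 0 without OEx replicate 2 and, at 0.0071, without Ctrl replicate 3. Of 798 values of single members under 21 alternatives, 702 kept direction and side of the threshold, 41 lost a call and 27 gained one. Filters on low values and the intensity trend changed none of the member counts of calls.

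Deviations from the group means had a mean r across genes of -0.230 for same-numbered mice and 0.0951 for other pairs. Pairs among replicates 1 and 2 gave -0.23 to -0.19 whether numbered alike or not. With replicate 3 apart in both groups, these values cannot tell whether same-numbered mice deviated together. The labels give no shared origin, so the replicate numbers were not taken as pairs. With the replicate block 22 members were called lower and 1 higher, against 15.5% and 12.6% of all tested genes (1986 and 1611). With 3 mice per group, 1 of which stands apart in each, small differences such as those of Ssr1, Ssr3 and Stt3b could not be resolved.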
